A study of Mus musculus with 4 samples.

Results

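The genes described here are retinoid receptors and retinoid-handling genes, 8 of the 32285 genes in the count tables, chosen by symbol. They are the nuclear receptors Rara, Rarb, Rarg, Rxra and Rxrb, the cellular retinoic acid binding proteins Crabp1 and Crabp2, and Cyp26b1, an enzyme that clears retinoic acid. All 8 were detected, with 110 UMIs for Cyp26b1 to 4279 for Crabp1 over the kept cells of 3 libraries (a UMI, or unique molecular identifier, marks 1 captured RNA molecule). The question was which cells of a mixed spermatogonial culture carry these transcripts. The study used Rara, Upp1 and Rarg to mark progenitor spermatogonia in its single-cell data. By real-time PCR it also reported that testis EVs raised Rara and Rarg in the cultures. The cells of origin of Rara and Rarg transcripts are therefore of interest.

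The cells were mouse primary spermatogonia, and testes of 3 male pups killed at postnatal day 6 gave the starting material. Thy1-positive cells, selected with an antibody because they include the undifferentiated spermatogonia, were kept with GDNF and basic FGF on STO cells, an embryonic mouse fibroblast line used as a feeder layer. For 3 days the vehicle cultures received PBS, and the EV cultures received extracellular vesicles (EVs) at 1 μg/mL, prepared from whole testes of mice at postnatal day 7. Each arm had 2 libraries of cells from digested clumps. Counts of vehicle 1, vehicle 2 and EV 1 were used, and of EV 2 only its 6794 barcodes, and its expression was left out. With 1 EV library that has counts, no difference between the arms has a replicate check.

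Retinoic acid is made from retinol by retinol dehydrogenases and then by retinaldehyde dehydrogenases of the Aldh1a family. Inside the cell it is bound by the CRABP proteins and broken down by the CYP26 enzymes. It acts through retinoic acid receptors (RARs), which bind DNA as partners of retinoid X receptors (RXRs), often at pairs of short direct repeats. In the testis retinoic acid drives spermatogonia into differentiation, with Stra8 and Kit as well known responsive genes. Rara is known mainly from Sertoli cells and Rarg from spermatogonia, while Cyp26b1 is known from somatic cells that shield fetal germ cells from retinoic acid.

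The promoters of the members were searched for the direct repeats that RAR and RXR pairs are known to bind. The search covered RefSeq windows of GRCm38.p6 from 250 bases before to 50 bases after a transcript start, and 7 of 8 members had at least 1 window, 13 in all. A repeat was any pair of the 6-base elements AGGTCA or AGTTCA or GGTTCA or GGGTCA in the same orientation on either strand, with 5 bases between them (DR5) or 2 bases (DR2). Among the members 1 of 7, Rarb, held a DR5 and none held a DR2. Over all 32851 windows, 0.0974% held a DR5 and 0.268% a DR2. The search also took in 26 further genes, those of retinol uptake and synthesis, the other receptor and clearance genes and the retinoic acid responsive genes. Of the 20 of them with a window 1, the clearance enzyme gene Cyp26a1, held a DR5. Both windows are printed 5′ to 3′ on the strand of the gene, because they are the only ones of the pathway genes searched with such a repeat, and the capitals mark the repeat.
Rarb window: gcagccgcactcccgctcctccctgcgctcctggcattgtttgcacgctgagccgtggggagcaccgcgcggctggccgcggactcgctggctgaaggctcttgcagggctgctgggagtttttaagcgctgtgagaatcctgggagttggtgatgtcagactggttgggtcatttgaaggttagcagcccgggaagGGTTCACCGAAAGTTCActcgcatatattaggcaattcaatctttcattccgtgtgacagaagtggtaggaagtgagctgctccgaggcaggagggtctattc
Cyp26a1 window: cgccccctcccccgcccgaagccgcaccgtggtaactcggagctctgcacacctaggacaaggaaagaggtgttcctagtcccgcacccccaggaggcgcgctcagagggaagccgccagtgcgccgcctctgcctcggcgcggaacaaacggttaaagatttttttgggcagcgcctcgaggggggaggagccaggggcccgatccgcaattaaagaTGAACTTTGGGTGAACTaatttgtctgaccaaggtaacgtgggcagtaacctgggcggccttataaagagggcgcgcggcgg
The Rarb window lies at chr14:16575427-16575726 on the minus strand, with its repeat at bases −53 to −37 from the start. The Cyp26a1 window lies at chr19:37697558-37697857 on the plus strand, with its repeat on the opposite strand at bases −32 to −16. A match of letters describes the sequence and does not show that a receptor was bound there.

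After filtering on genes, mitochondrial UMIs and doublets, 8263 cells remained in vehicle 1 (of 23686047 deposited UMIs), 8637 in vehicle 2 (27444797) and 4779 in EV 1 (10793232). Each cell was given a class from its own UMIs. A germ cell had at least 2 UMIs of Dazl, Tex15, Stk31 and Epcam together and more of them than of Col1a1, Col1a2, Sparc and Dcn, and a feeder cell the reverse. Vehicle 1 held 53.4% germ cells (95% exact binomial interval 52.3 to 54.5) and vehicle 2 held 55.4% (54.3 to 56.4), whereas EV 1 held 4.75% (4.16 to 5.39). Feeder cells made up 28.5%, 28.6% and 52.5% in the same order, and cells of neither class 18.1%, 15.99% and 42.8%. EV 1 thus stood apart from the vehicle libraries in its class shares, and its 227 germ cells held 325012 UMIs, against 9445041 and 11013433 in the vehicle libraries. In the germ cells of EV 1 a single UMI was worth about 3.08 CPM (counts per 1e+06 UMIs).

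The classes were checked with genes that the rule had not used. The summed level of 8 germ cell genes (Ddx4, Dnd1, Sall4, Mael, Tdrd5, Taf4b, Zbtb16 and Gfra1) ran from 655.4 to 914.4 CPM in germ cells and from 10.0 to 29.3 CPM in feeder cells. For 8 fibroblast genes, led by Fn1, the range was 1823 to 1910 CPM in feeder cells and 207.0 to 341.5 CPM in germ cells. Of the 8 Sertoli cell markers, Amh and Dhh had at most 3 UMIs in any class and library, although the list as a whole reached 405.8 to 423.0 CPM in feeder cells, mostly from Sox9 and Rhox5. Of the 6 Leydig cell markers, 5 had at most 3 UMIs everywhere, and the lists for myoid cells, macrophages and endothelial cells stayed at or under 38.9 CPM. The part of these other markers in the member levels was not tested. The summed level of 4 Y-linked genes was 175.8, 182.3 and 193.8 CPM in germ cells (vehicle 1, vehicle 2 and EV 1). In feeder cells it was 4.29, 4.09 and 0.442 CPM. At most 22 barcodes were shared between any pair of libraries.

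The receptors and handling genes did not sit in 1 class. Crabp1, which buffers retinoic acid in the cytoplasm, was the most unequal member and was higher in the germ cells of every library. Rarg was the most unequal receptor and was carried mainly by feeder cells. Rara, Rarb, Rxra and Cyp26b1 were also higher in feeder cells, and Rxrb and Crabp2 were higher in germ cells. The test behind these statements was edgeR's quasi-likelihood test on UMIs summed per library and class, with the library as a block, over 15629 genes (6 sums). The sample titles call the libraries biological replicates. The p-values cover only these libraries, and the test takes the spread of each gene in part from all genes tested. With a Benjamini-Hochberg adjusted p under 0.05, 3 of 8 members were higher in germ cells and 5 of 8 in feeder cells. The classes differ widely, since 40.1% of all genes tested were called higher in germ cells and 41.7% higher in feeder cells, 81.8% in either direction, so that the count of members called is near the background and the size of each difference carries more.

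**Figure D1:**
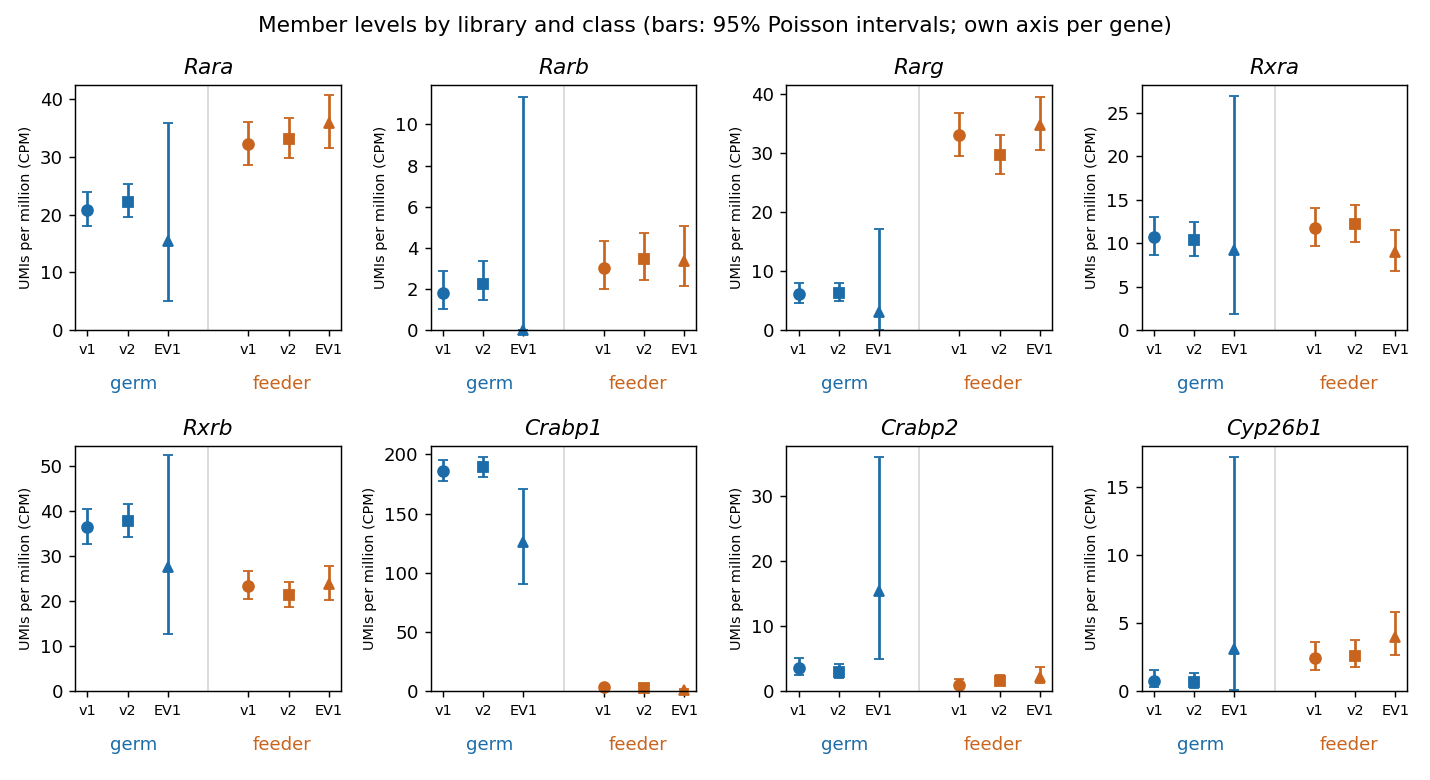
Level of each member in CPM (vertical axis, a separate linear scale for each gene) in germ cells (blue) and feeder cells (orange) of vehicle 1 (v1, circles), vehicle 2 (v2, squares) and EV 1 (triangles), with 95% Poisson intervals. Crabp1 sits at 126.1 to 189.2 CPM in germ cells and at or under 3.77 CPM in feeder cells, Rarg is lower in germ than in feeder cells in all 3 libraries, and the intervals of germ cells in EV 1 are wide because they rest on 0 to 41 UMIs.

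In germ cells Crabp1 reached 186.1 CPM (95% Poisson interval 177.5 to 195.0) and 189.2 CPM (181.2 to 197.5) in the vehicle libraries, and 126.1 CPM (90.5 to 171.1) in EV 1. In feeder cells it was at 3.77, 2.60 and 0.590 CPM, from 36, 28 and 4 UMIs. Germ and feeder cells did not overlap, and germ cells were higher in 3 of 3 libraries. The log2 ratio of germ over feeder cells was 5.66 ± 0.16 (SE, adjusted p = 9.21e-20 by edgeR's quasi-likelihood test), a size that 2.32% of all genes tested reached or passed in that direction (log2 ratio of at least 5). Germ cells held 88.8% and 93.6% of all Crabp1 UMIs of the vehicle libraries, while they held 44.4% and 45.9% of all UMIs.

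The few Crabp1 UMIs in feeder cells were set against the level that germ cell RNA reaches there. The feeder level of Crabp1 was 2.02%, 1.38% and 0.467% of its germ level in vehicle 1, vehicle 2 and EV 1. For the 8 germ cell check genes the summed feeder level was 3.27%, 2.70% and 1.53% of the germ level. Crabp1 in feeder cells was thus no higher than the background that free RNA and mixed droplets can give, and it is not read as expression there.

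Crabp2, the other binding protein, which carries retinoic acid to the nucleus, had few UMIs. It was at 3.60, 3.00 and 15.4 CPM in the germ cells of vehicle 1, vehicle 2 and EV 1 (34, 33 and 5 UMIs), and at 0.941, 1.58 and 2.21 CPM in feeder cells (9, 17 and 15 UMIs). Each library had its higher level in germ cells, and the lowest germ value lay above the highest feeder value. The log2 ratio of germ over feeder cells was 1.17 ± 0.36 (SE, adjusted p = 0.00479 by edgeR's quasi-likelihood test). It rested in part on the 5 UMIs of EV 1 and was 0.95 (adjusted p = 0.0102) in the vehicle libraries alone. Without vehicle 1 the ratio was 1.01 and the adjusted p 0.124, and without the library block it was 0.88 with an adjusted p of 0.101.

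Among the RARs, Rarg showed the largest difference. In feeder cells Rarg was at 32.9 CPM (95% Poisson interval 29.4 to 36.8) and 29.7 CPM (26.5 to 33.1) in the vehicle libraries and at 34.8 CPM (30.5 to 39.5) in EV 1. In germ cells it was at 6.14, 6.36 and 3.08 CPM, from 58, 70 and 1 UMIs. The classes did not overlap, and feeder cells were higher in 3 of 3 libraries. The log2 ratio was −2.70 ± 0.14 (SE, adjusted p = 4.52e-15 by edgeR's quasi-likelihood test), and 15.7% of all genes tested were called higher in feeder cells with a log2 ratio of 2 or more. Feeder cells held 74.3%, 70.6% and 69.6% of the Rarg UMIs of vehicle 1, vehicle 2 and EV 1, beside 44.9%, 44.8% and 67.7% of all UMIs.

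Some Rarg signal was present in germ cells. Its germ level was 18.6% and 21.4% of the feeder level in the vehicle libraries, and 8.85% in EV 1 from 1 UMI. The 8 fibroblast check genes had a median of 9.92%, 8.51% and 17.6% of their feeder level in germ cells. Single genes of that list ranged widely in vehicle 1, from 3.35% for Col5a2 to 159% for Fbn1, so the list gives no sharp limit. Rarg in vehicle germ cells lay above the median of the list, and how much of it came from germ cells was not tested.

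Rara UMIs were found in both classes. Its germ level was 20.9 and 22.2 CPM in the vehicle libraries and 15.4 CPM in EV 1 (197, 245 and 5 UMIs). Its feeder level was 32.1, 33.1 and 35.8 CPM (307, 356 and 243 UMIs). Feeder cells were higher in 3 of 3 libraries without overlap, with a log2 ratio of −0.98 ± 0.11 (SE, adjusted p = 1.54e-08 by edgeR's quasi-likelihood test). In the vehicle libraries the germ level of Rara was 65.0% and 67.2% of its feeder level. That lies above the median of the fibroblast check genes and above each of them except Fbn1 (159% and 154%). Fbn1 was itself higher in germ than in feeder cells, so it gives no background level. How much of the germ level of Rara came from germ cells was not tested.

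Rarb, whose promoter holds the repeat printed above, was near the limit of detection. It was at 1.80 and 2.27 CPM in vehicle germ cells (17 and 25 UMIs) and had no UMI in the 227 germ cells of EV 1. In feeder cells it was at 3.03, 3.44 and 3.39 CPM (29, 37 and 23 UMIs). The log2 ratio was −1.07 ± 0.32 (SE, adjusted p = 0.00358 by edgeR's quasi-likelihood test). The call was lost with DESeq2 (adjusted p = 0.0775) and without vehicle 1 (0.0934) or vehicle 2 (0.0739). The 3′ end of Rarb overlaps Top2b, a gene on the opposite strand with 684 to 1297 UMIs per library, and the sources used here do not state whether the counting used the strand, so reads from the overlap cannot be assigned with certainty.

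The RXRs differed least between the classes. Rxrb was at 36.4, 37.8 and 27.7 CPM in germ cells (344, 416 and 9 UMIs) and at 23.4, 21.3 and 23.9 CPM in feeder cells (224, 229 and 162 UMIs). Every germ value lay above every feeder value, and the log2 ratio was 0.34 ± 0.11 (SE, adjusted p = 0.00868 by edgeR's quasi-likelihood test). Rxra was at 10.7, 10.4 and 9.23 CPM in germ cells (101, 114 and 3 UMIs) and at 11.7, 12.2 and 8.99 CPM in feeder cells (112, 131 and 61 UMIs), with a log2 ratio of −0.54 ± 0.15 (SE, adjusted p = 0.00173). The classes overlapped for Rxra, and the counting interval of its ratio in single libraries included 1 in all 3 (0.913 germ over feeder in vehicle 1, 0.691 to 1.21). Neither RXR call was firm, as without vehicle 2 the adjusted p was 0.250 for Rxra and 0.883 for Rxrb, and without vehicle 1 it was 0.171 and 0.629. With DESeq2 it was 0.101 for Rxra and 0.503 for Rxrb.

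Cyp26b1 had the fewest UMIs of the members. It was at 2.41, 2.60 and 3.98 CPM in feeder cells (23, 28 and 27 UMIs), and at 0.741, 0.636 and 3.08 CPM in germ cells (7, 7 and 1 UMIs). Feeder cells were higher in 3 of 3 libraries, although the single UMI of EV 1 put its germ value above the feeder values of both vehicle libraries. The log2 ratio was −2.13 ± 0.41 (SE, adjusted p = 4.59e-05 by edgeR's quasi-likelihood test). The vehicle libraries alone gave −2.25 (adjusted p = 2.02e-06).

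**Figure D2:**
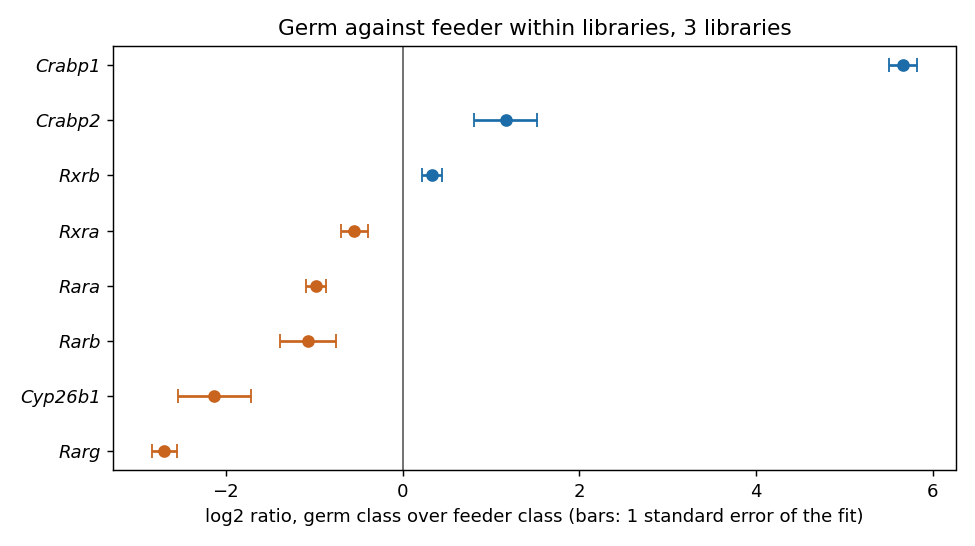
Log2 ratio of germ over feeder cells for the 8 members (horizontal axis, linear), from edgeR's fit over 3 libraries with the library as a block, with bars of 1 standard error. Values right of 0 (blue) are higher in germ cells and those left of 0 (orange) higher in feeder cells, from 5.66 for Crabp1 to −2.70 for Rarg.

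These ratios depend in level, not in order, on the scaling between the classes. Scaling by library size alone moved the median log2 ratio of all genes from −0.03 to 0.35 and the share of calls that were higher in germ cells from 49.0% to 60.2%. On that scale the log2 ratio was 6.05 for Crabp1, 0.71 for Rxrb, −0.61 for Rara and −2.33 for Rarg. Rxra was the 1 member to lose its call there, at −0.18 (adjusted p = 0.254), and none changed direction. Leaving EV 1 out kept all 8 calls, with 5.49 for Crabp1, −2.71 for Rarg, −0.995 for Rara and 0.34 for Rxrb. With the added requirement of a log2 ratio of at least 1, which 26.6% of genes passed as higher in germ cells and 28% as higher in feeder cells, 2 members (Crabp1 and Crabp2) and 3 members (Rarg, Cyp26b1 and Rarb) remained.

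Shares of cells with a UMI were compared after each cell had been thinned to 1000 UMIs, since feeder cells were the deeper class (medians of 3635 against 1936 UMIs in vehicle 1). This left out 49 to 146 germ cells and 56 to 184 feeder cells per library. A Crabp1 UMI was found in 15.9% (95% exact binomial interval 14.8 to 17.0) and 16.5% (15.5 to 17.6) of the germ cells of the vehicle libraries, and in 14.0% of those of EV 1 (9.30 to 20.0). In feeder cells the share was 0.616%, 0.248% and 0.0430%, and that of the germ cell gene Ddx4, which feeder cells should lack, was 0.308%, 0.124% and 0 of 2324 cells (upper bound 0.159%). The germ share of Ddx4 itself was 12.4%, 11.5% and 17.4%. Unthinned, Crabp1 was found in 30.4%, 31.8% and 16.3% of germ cells.

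For Rarg the order was the reverse. A Rarg UMI was found in 2.69%, 3.72% and 3.79% of thinned feeder cells in the order vehicle 1, vehicle 2 and EV 1, and in 0.539%, 0.514% and 0% of germ cells (0 of 178 in EV 1, with an upper bound of 2.05%). Pdgfra, a fibroblast gene that germ cells should lack, was found in 15.5%, 14.5% and 10.8% of feeder cells and in 0.657%, 0.535% and 0.562% of germ cells. The germ share of Rarg was under that of Pdgfra, but Pdgfra was also found in more feeder cells, so these shares do not settle whether Rarg in germ cells is background. Rara was found in 2.18%, 2.12% and 2.25% of germ cells and in 2.77%, 3.23% and 3.36% of feeder cells, so that most cells of either class showed no UMI of either receptor at this depth. Rxrb was found in 3.96%, 3.77% and 2.81% of germ cells and in 2.03%, 2.19% and 2.58% of feeder cells, and for the other members no share in either class passed 1.41%.

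**Figure D3:**
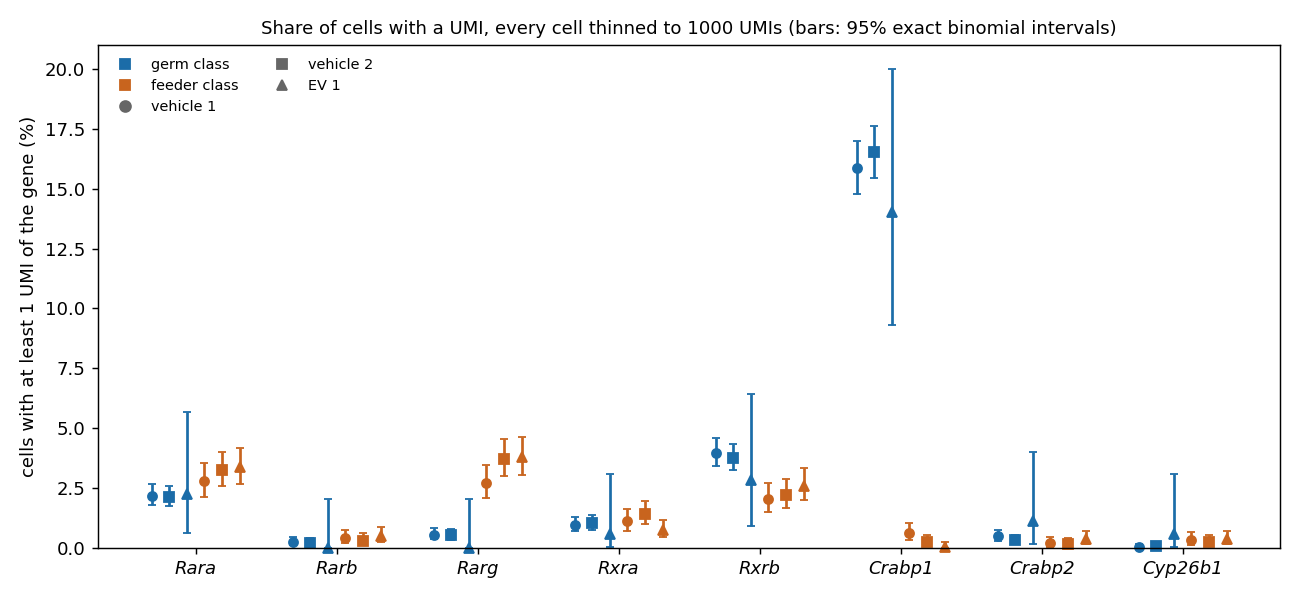
Percent of cells with at least 1 UMI of each member (vertical axis, linear), with every cell thinned to 1000 UMIs, for germ cells (blue) and feeder cells (orange) of vehicle 1 (circles), vehicle 2 (squares) and EV 1 (triangles), with 95% exact binomial intervals. Crabp1 reaches 14.0% to 16.5% of germ cells and no other member passes 3.96% in any class.

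The genes most like each member were taken by their pattern alone, as the smallest root-mean-square difference in centred log2(CPM + 1) over the 6 sums of library and class, among 11266 genes with at least 200 UMIs. For Crabp1 they were Rbm46, which encodes a germ cell RNA-binding protein, at a difference of 0.11, Hhex at 0.14 and Auts2 at 0.19. For Rarg they were Clip2, Ticam1 and Spef2 (0.12 to 0.14), and for Rara they were Rab5b, Gramd4 and Ino80d (0.04 to 0.06). For Rxra they were Lmf2, Exosc4 and Rpp25l, and for Rxrb Smim7, Gmeb2 and Sec61a1, all at 0.04 to 0.05. Rarb, Crabp2 and Cyp26b1 had too few UMIs for this.

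Germ cells in these cultures span undifferentiated and differentiating states, and the members were compared between germ cells with and without a UMI of Stra8 or Kit. Crabp1 was at 229.9 CPM in cells with and 162.0 CPM in cells without such a UMI in vehicle 1, a ratio of 1.42 (95% exact conditional interval 1.29 to 1.56). In vehicle 2 it was at 231.2 and 164.2 CPM, a ratio of 1.41 (1.29 to 1.54), and in EV 1 at 188.6 and 112.5 CPM, a ratio of 1.68 (0.758 to 3.44) from 41 UMIs. Cells with a Stra8 or Kit UMI were higher in Crabp1 in 3 of 3 libraries. They were also deeper (a median of 2151 against 1861 UMIs in vehicle 1), and the part of depth was not tested.

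The receptors differed less clearly between these germ cells. Rara had a ratio of 1.41 (1.05 to 1.88) in vehicle 1 and 1.21 (0.933 to 1.58) in vehicle 2, and Rarg 1.28 (0.728 to 2.23) and 1.88 (1.14 to 3.10). The intervals of Rxra and Rxrb included 1 in both vehicle libraries. Crabp1 was also higher in germ cells with a UMI of Mki67 or Top2a, genes of cycling cells, with 201.4 against 140.1 CPM in vehicle 1 and 204.8 against 138.2 CPM in vehicle 2. Those germ cells were also deeper, with a median of 2192 against 1549 UMIs in vehicle 1 and 2357 against 1639.5 in vehicle 2. The part of depth was not tested. In feeder cells, those with an interferon-stimulated UMI (Ifit1, Ifit3 or Isg15) had Rxrb at 0.740 (0.549 to 0.989) and 0.724 (0.539 to 0.965) times the level of the others in vehicle 1 and vehicle 2, and 1.10 (0.662 to 1.75) in EV 1. The cells with such a UMI were deeper (a median of 4600 against 3172 UMIs in vehicle 1). In the same comparison of vehicle 2, Crabp1 and Crabp2 also had intervals that left out 1, at 0.358 (0.106 to 0.961) from 5 UMIs and 0.103 (0.00245 to 0.662) from 1 UMI in the cells with such a UMI. In feeder cells with a UMI of Mki67 or Top2a, this held for Crabp1 in vehicle 1, at 4.18 (2.02 to 8.49), and in EV 1 for Rara, at 2.22 (1.19 to 3.80), and Rarb, at 7.64 (1.89 to 23.0, from 4 UMIs), each in 1 of 3 libraries. Feeder cells with a UMI of Mki67 or Top2a were deeper as well (a median of 4878.5 against 3517 UMIs in vehicle 1). The intervals of these cell subsets cover counting error only and were not adjusted for the number of comparisons.

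To ask whether EV 1 differed within a class, each member's level in EV 1 was set against the pooled vehicle libraries, with an exact conditional interval. A difference was counted when it was at least 1.5-fold and its interval left out 1. In feeder cells 0 of 8 members were counted as higher and 1 as lower, beside 6.19% and 10.2% of 17487 genes. The receptors were close to the vehicle level there, with a ratio of 1.10 (0.944 to 1.27) for Rara, 1.04 (0.619 to 1.70) for Rarb, 1.11 (0.956 to 1.30) for Rarg and 1.07 (0.889 to 1.28) for Rxrb. Rxra was at 0.752 (0.558 to 0.999). Crabp2 was at 1.73 (0.851 to 3.39) and Cyp26b1 at 1.59 (0.956 to 2.58), with intervals that included 1. Cyp26b1 was counted as higher with TMM factors, DESeq2 size factors, all barcodes or doublets kept. The 1 member counted was Crabp1, at 0.187 (0.0495 to 0.503) from 4 UMIs, at a feeder level no higher than free RNA and mixed droplets can give. The summed feeder level of the germ check genes moved with it, from 29.3 and 24.7 CPM to 10.0 CPM.

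In germ cells EV 1 could be read for Crabp1 but hardly for the receptors. Crabp1 was at 0.672 (0.481 to 0.913) of the pooled vehicle level, with an interval that left out 1, though the difference stayed within 1.5-fold. With TMM scaling its log2 ratio was −0.70, past that fold. In the same germ cells the summed level of the germ check genes was lower in EV 1 as well (897.0, 914.4 and 655.4 CPM in vehicle 1, vehicle 2 and EV 1), and that of the fibroblast check genes was higher (222.7, 207.0 and 341.5 CPM). Of the germ check genes, Zbtb16 (168.7, 172.2 and 46.2 CPM) and Gfra1 (205.8, 215.2 and 98.5 CPM) fell most in CPM. Dnd1, Sall4 and Tdrd5 were also lower in EV 1, while Ddx4, Mael and Taf4b were higher. The part of the check genes in the Crabp1 value was not tested. On this scale the median log2 ratio of all genes in germ cells was 0.23, and it was 0.09 with TMM scaling. Crabp2 was counted as higher, at 4.70 (1.48 to 11.5), from 5 UMIs in EV 1, and it was the 1 member counted in germ cells, beside 5.41% of 17243 genes counted as higher and 2.37% as lower. It was no longer counted with cells thinned to 1000 UMIs. Rara was at 0.712 (0.230 to 1.67) from 5 UMIs, Rarg at 0.492 (0.0124 to 2.79) from 1 UMI and Rxrb at 0.745 (0.340 to 1.42) from 9 UMIs. A difference of 1.5-fold in either direction lies inside the intervals of Rara and Rarg, and was not detectable at this depth. Rarb had no UMI in EV 1, and its 95% Poisson upper limit of 11.35 CPM lay above both vehicle levels.

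Summed over all kept cells, without regard to class, Rarg and Rara stood higher in EV 1. Rarg was at 19.9 and 18.8 CPM in the vehicle libraries and at 33.8 CPM in EV 1, a ratio of 1.75 (1.54 to 1.99) to the pooled vehicle libraries. Rara was at 26.6, 27.5 and 36.2 CPM, a ratio of 1.34 (1.19 to 1.51), and Cyp26b1 at 1.74, 1.67 and 3.29 CPM, a ratio of 1.94 (1.25 to 2.95). Crabp1 was at 93.0, 92.8 and 7.19 CPM, a ratio of 0.0774 (0.0604 to 0.0977). Rarg and Cyp26b1 were counted as higher and Crabp1 as lower, 2 and 1 of 8 members, beside 16% and 25.8% of 20952 genes. Cyp26b1 was no longer counted with cells thinned to 1000 UMIs, and Rarb was added as higher with DESeq2 size factors (log2 ratio 0.59) and without vehicle 2 (0.74).

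The class shares of the libraries were set beside these values. Of the UMIs of germ and feeder cells together, germ cells held 49.7% and 50.6% in the vehicle libraries and 4.57% in EV 1. For each member the mean vehicle level of each class was weighted by the class shares of EV 1, which gives the level that the shares alone would produce. For Rarg that level was 30.2 CPM, against 18.7 CPM for the mean of the vehicle libraries and 33.3 CPM measured in EV 1, so that the measured value was 1.11 times the level from shares alone (0.969 to 1.26). For Rara it was 32.1 CPM, against 27.1 CPM in the vehicle libraries and 34.9 CPM in EV 1, a ratio of 1.09 (0.956 to 1.23). For Rxrb it was 23.0 CPM against 29.8 and 24.1 CPM, a ratio of 1.04 (0.894 to 1.21). The outcome for Rarg and Rara depends on the cells of neither class. Over all kept cells, with those cells as a group of their own, the shares alone gave 28.7 CPM for Rarg, under the 33.8 CPM measured (95% Poisson interval 30.3 to 37.6), and 30.5 CPM for Rara, under 36.2 CPM (32.6 to 40.2).

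Within germ and feeder cells, for 4 members the interval of the ratio to the level from shares alone left out 1, where the interval covers the counting error of EV 1 and holds the vehicle levels fixed. Crabp1 was at 6.33 CPM where the shares alone gave 11.6 CPM, a ratio of 0.545 (0.397 to 0.729), and Rxra at 9.002 against 11.9 CPM, a ratio of 0.758 (0.583 to 0.967). Crabp2 was at 2.81 against 1.35 CPM, a ratio of 2.08 (1.27 to 3.21), and Cyp26b1 at 3.94 against 2.42 CPM, a ratio of 1.63 (1.08 to 2.35). With the counting error of the vehicle libraries included, the feeder ratios of EV 1 to vehicle had intervals that included 1 for Crabp2 and Cyp26b1. Over all kept cells the level from shares alone also lay inside the interval of EV 1 for Cyp26b1 (2.49 CPM, against 2.27 to 4.63). The share of UMIs combines the number of cells with the UMIs per cell. Germ cells numbered 4411, 4783 and 227 in the same order of libraries, with a median of 1936, 2091 and 1322 UMIs per cell.

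**Figure D4:**
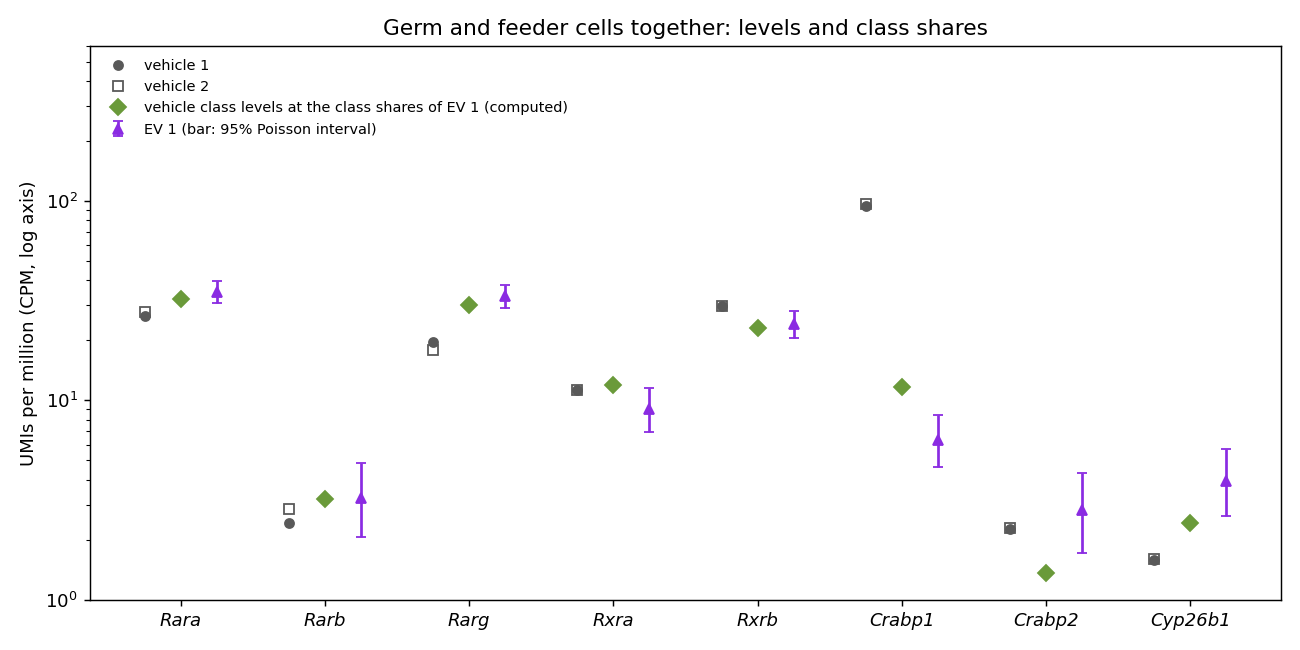
Level of each member in CPM (vertical log axis) over germ and feeder cells together in vehicle 1 and vehicle 2 (grey), as computed from the mean vehicle class levels at the class shares of EV 1 (green diamonds), and as measured in EV 1 (purple triangles, with 95% Poisson intervals). For Rarg the computed level of 30.2 CPM lies near the 33.3 CPM measured, above 18.7 CPM for the vehicle mean, while for Crabp1 the measured 6.33 CPM lies under the computed 11.6 CPM.

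Cells of neither class followed the same order. In unclassed cells Crabp1 was at 81.4 and 51.5 CPM in the vehicle libraries and at 9.29 CPM in EV 1, and Rarg at 22.3, 28.2 and 35.1 CPM. Between the arms the germ check genes moved with them, at 391.1, 382.2 and 42.7 CPM in these cells, and the fibroblast check genes at 947.2, 993.2 and 1666 CPM. Their part in the member values was not tested.

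Other genes of the pathway were read from lists drawn up by function, with earlier results of these data known. Beside each count stand the 40.1% of all genes called higher in germ cells and the 41.7% higher in feeder cells, so that a list with most of its genes called is near the background. Of the 11 genes of retinol uptake, storage and synthesis, 8 could be tested, of which 3 were higher in germ cells and 5 in feeder cells, with a median log2 ratio of −1.34 beside −0.03 for all genes. The retinol carrier and its receptor were higher in different classes. Rbp4, the carrier of retinol in blood, was at 173.4, 165.3 and 138.5 CPM in germ cells and at or under 5.02 CPM in feeder cells (log2 ratio 5.34 ± 0.18, adjusted p = 7.30e-19 by edgeR's quasi-likelihood test). Stra6, a receptor for Rbp4, was at 4.71, 4.74 and 1.47 CPM in feeder cells and at or under 0.741 CPM in germ cells.

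The enzymes that make retinoic acid were called in both directions as well. Aldh1a2 was at 10.6, 11.5 and 6.15 CPM in germ cells and at or under 0.737 CPM in feeder cells (log2 ratio 4.07 ± 0.33). Aldh1a3 went the same way (3.38 ± 0.31), while Aldh1a1 was at 11.5, 12.2 and 2.80 CPM in feeder cells and at or under 1.54 CPM in germ cells (−3.95 ± 0.30). Rdh10, Rdh11 and Dhrs4, which act on retinol and retinaldehyde, were higher in feeder cells, with log2 ratios of −1.71, −0.96 and −2.50. Lrat, Dhrs3 and Bco1 were too low to test. All 8 calls had an adjusted p of at most 1.36e-04.

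Of the receptor and clearance genes that are no members, Rxrg, Cyp26a1 and Cyp26c1 were too low for the test. Cyp26a1 had 37, 30 and 0 UMIs in germ cells, in the same order of libraries, with 1, 2 and 0 in feeder cells. In the vehicle libraries the UMIs of the clearance enzymes thus lay mostly in different classes, Cyp26a1 in germ cells and Cyp26b1, as given above, in feeder cells. Rxrg had 13, 21 and 0 UMIs in germ cells and 1 in all feeder cells.

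Of the 12 retinoic acid responsive genes, 9 could be tested, of which 3 were higher in germ cells and 6 in feeder cells, with a median log2 ratio of −3.59. The 3 in germ cells were genes of spermatogonial differentiation and meiotic entry. Stra8 was at 173.8, 171.9 and 83.1 CPM in germ cells and at or under 2.93 CPM in feeder cells (log2 ratio 5.66 ± 0.16, adjusted p = 9.21e-20), and Kit and Rec8 had ratios of 5.10 and 4.46. The 6 in feeder cells were led by the transcription factor genes Meis2 (−5.85), Meis1 (−5.65), Nr2f2 (−5.29) and Nr2f1 (−5.01), followed by Rarres2 (−3.59) and Tgm2 (−1.46). Several of these factors are common in fibroblasts, and a class difference in them is no measure of retinoic acid.

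Stra8 was set beside Crabp1 because both are germ cell genes here. In the germ cells of EV 1 Stra8 was at 0.481 (0.316 to 0.701) of the pooled vehicle level from 27 UMIs, Rbp4 at 0.819 (0.596 to 1.10) from 45 and Crabp1 at 0.672 (0.481 to 0.913) from 41. By the count rule 1 of the 10 responsive genes with at least 10 UMIs was lower there (Stra8) and 1 was higher. The higher gene was Meis2, at 3.93 (1.41 to 8.88) from 6 UMIs. Among all genes 2.37% were lower and 5.41% higher in germ cells. Beside the Stra8 and Meis2 values stand the lower germ check sum and higher fibroblast check sum of these cells, given above for Crabp1. Over germ and feeder cells together the class shares alone gave 10.6 CPM for Stra8, 11.4 for Rbp4 and 11.6 for Crabp1, and EV 1 had 4.08, 6.61 and 6.33 CPM. In feeder cells of EV 1, by the count rule used for the members, 5 of the 9 retinol uptake, storage and synthesis genes with at least 10 UMIs were lower and 0 higher, beside 10.2% and 6.19% of all genes. The 5 were Stra6 (ratio 0.312), Rbp4 (0.0788), Rdh10 (0.587), Dhrs4 (0.486) and Aldh1a1 (0.236). Of the 9 responsive genes with that many UMIs, 4 were lower (Stra8 at 0.103, Nr2f1 at 0.401, Rarres2 at 0.406 and Tgm2 at 0.608) and 0 higher. Rbp4 and Stra8 are germ cell genes here with 2 UMIs each in the feeder cells of EV 1, and the germ check genes moved with them in feeder cells, as they did with Crabp1 (29.3, 24.7 and 10.0 CPM). The part of germ cell RNA, and of the feeder make-up given above for the members, in these values was not tested.

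Proteins that work with the receptors were read in the same way. Of 9 coregulators 3 were higher in germ cells (Med1, Crebbp and Ncoa3), 3 in feeder cells (Nrip1, Ncor1 and Ncoa2), and 3 did not pass the test (Ncoa1, Ep300 and Hdac3, adjusted p = 0.0942, 0.652 and 0.0628), with a median log2 ratio of −0.05. The largest differences were 1.53 ± 0.11 for Med1, a Mediator subunit that nuclear receptors contact, and −1.85 ± 0.10 for Nrip1, a corepressor of ligand-bound receptors. Of 10 other receptors that pair with RXRs, 7 could be tested, with 3 higher in germ cells (Ppara, Nr4a2 and Nr4a1) and 4 in feeder cells (Thra, Vdr, Nr1h2 and Ppard) and a median of −0.87. Thra, the thyroid hormone receptor alpha gene, was at 78.9, 92.2 and 77.4 CPM in feeder cells and at 16.5, 15.1 and 27.7 CPM in germ cells (log2 ratio −2.77 ± 0.11).

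**Figure D5:**
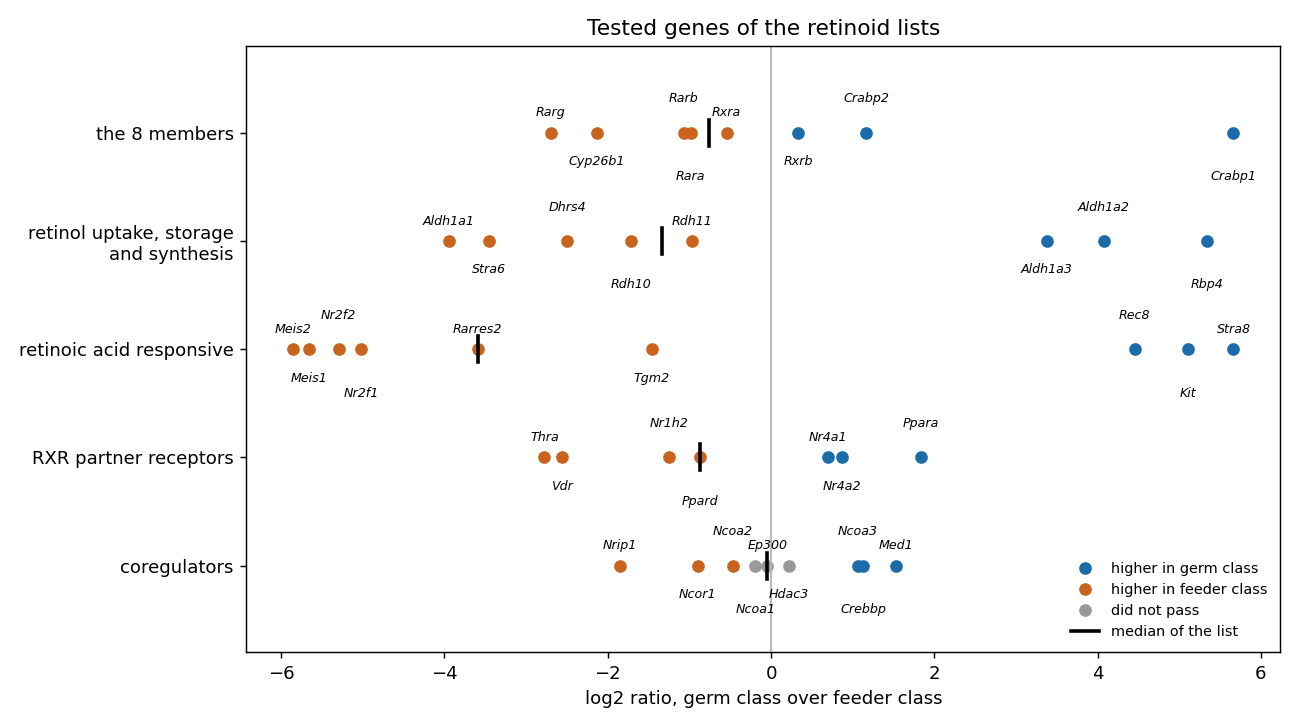
Log2 ratio of germ over feeder cells (horizontal axis, linear) for the tested genes of each retinoid list, with 1 point per gene, colored by the class in which it was called higher (blue germ, orange feeder, grey not passing), and a black bar at the median of the list. The members run from Rarg at −2.70 to Crabp1 at 5.66, and the responsive genes fall into a feeder group led by Meis2 at −5.85 and a germ group led by Stra8 at 5.66.

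By the GRCm38 annotation (GENCODE vM21) Rara lies at chr11:98927818-98974942, Rarb at chr14:16430839-16819156, Rarg at chr15:102234938-102257517, Rxra at chr2:27676440-27762957 and Rxrb at chr17:34031812-34038399. Crabp1 lies at chr9:54764748-54773110, Crabp2 at chr3:87948666-87953376 and Cyp26b1 at chr6:84571414-84593908. The 8 genes are on 8 different chromosomes. UMIs were captured at the 3′ end, so that CPM values are not divided by gene length and the levels of different genes were not ranked against each other.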

How the data were processed

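Per the labels and the study's methods, the authors prepared droplet libraries by the 10x Genomics protocol, aligned reads to mm10 with GENCODE vM23 and counted UMIs with Cell Ranger 7.0.1. The deposited values are raw UMI counts per gene and barcode, without normalization. The 8 members, the gene lists and the tests were chosen with earlier results of these data known, so that none of them is an independent test of a pattern already seen.

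Barcodes were kept when they had more than 400 but fewer than 4000 genes, with mitochondrial UMIs below 10%, and those with the highest Scrublet scores (scanpy 1.11.5) were removed at 0.8% per 1000 cells, 633, 697 and 198 of vehicle 1, vehicle 2 and EV 1. Depth was 10793232 to 27444797 UMIs per library. Counts were summed per library and class and divided by the sum over genes, times 1e+06 (CPM). Classes were compared in edgeR 4.0.16 (R 4.3.3) with TMM scaling, filterByExpr and library as a block. The 8 genes that set the classes entered library sizes but no test. The standard error is the log2 ratio over the square root of F. The procedure was also run on simulated counts with a fixed dispersion, no library effect and few changed genes. That run does not cover data in which most genes differ between the classes, and its outcome is not used here. EV 1 and vehicle were compared by counts alone, with exact 95% Poisson and conditional intervals (scipy 1.17.1) that cover counting error only, as droplet counting is the one source of error they hold, and log2 ratios had 0.5 UMI added to each sum. Genes entered that background with at least 10 UMIs in the class.

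Named genes are the 8 members, the genes of the fixed lists and, for each member with at least 200 UMIs, the 3 genes most alike in pattern, where genes with provisional names were skipped. Alternatives were scaling by library size, DESeq2 1.42.0, no filter on low counts, no library block, leaving out each library, a stricter class rule (at least 4 UMIs and 3 times the other sum), all barcodes, doublets kept, thinning to 1000 or 2000 UMIs, and means over cells of counts per 10000. A further requirement of a log2 ratio of at least 1 was added after seeing the data. Promoter sequences came from RefSeq (GRCm38.p6). Some genes of the lists are not reported here and are left out of the list counts. Sequences of the proteins and the Crabp2 promoter were not used here.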

Additional observations from a re-analysis of the deposited data

Results flagged for a closer look

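Rara, Rarg and Rxrb had arm differences of opposite sign in germ and feeder cells, with EV 1 below both vehicle libraries in germ cells and above both in feeder cells. Taken as a log2 ratio to the mean of the vehicle libraries, the germ value of EV 1 minus its feeder value was −0.49 for Rara, −0.60 for Rarg and −0.44 for Rxrb. This difference was not tested, since the EV arm had 1 library with counts. In the germ cells of EV 1 the values rest on 5 UMIs for Rara, 1 for Rarg and 9 for Rxrb, and the counting interval of each germ ratio to vehicle included 1 (0.230 to 1.67, 0.0124 to 2.79 and 0.340 to 1.42). With the stricter class rule the germ log2 ratio of Rara was 0.08, and with cells thinned to 1000 UMIs it was 0.21, against −0.35 as reported. The stricter class rule also turned the sign for Rarg in germ cells (0.65 against −0.45) and for Rxrb in feeder cells (−0.09 against 0.10).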

How the results depend on the processing

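No call changed direction. Of the 85 alternative values of the germ over feeder log2 ratios, 72 kept their call and 13 lost it, all for Rarb, Rxra, Rxrb and Crabp2. The 1 not given with those genes above is Rxrb without the library block, with an adjusted p of 0.169 by edgeR. Of the alternative log2 ratios of EV 1 to vehicle, which have no test, 93 moved by more than the spread between the vehicle libraries and 114 did not. Of the alternative shares of cells, unthinned or thinned to 2000 UMIs, 93 left the counting interval and 51 did not. Of 8 members, 5 were called higher in feeder cells, against 3 with DESeq2, 3 with cells thinned to 1000 UMIs (where Rarb, Crabp2 and Cyp26b1 were too low to test), 3 with the added requirement on the log2 ratio, and 3 to 5 when 1 library was left out (3 without vehicle 1 or vehicle 2, 5 without EV 1). The members called higher in germ cells were 3, against 1 without the library block and 1 to 3 when 1 library was left out (1 without vehicle 1, 2 without vehicle 2, 3 without EV 1). The members at least 1.5-fold from vehicle in EV 1, with an interval that left out 1, were 1 in feeder cells and 1 in germ cells. With TMM factors, DESeq2 size factors, all barcodes or doublets kept, the count in feeder cells became 2 as Cyp26b1 was added (log2 ratio 0.73 to 0.83), and the germ count became 2 as Crabp1 was added (−0.70 to −0.60), while the germ count became 0 with cells thinned to 1000 UMIs. The cause was not tested. No paired analysis was possible because counts were used from 1 EV library only, so that the arms shared a single replicate number. The germ cells of EV 1 set the precision, with at most 9 UMIs for any receptor.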
